A study of Drosophila melanogaster with 3 samples.

Results

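Glutathione transferases join the tripeptide glutathione to reactive or fat-soluble compounds, which makes them less toxic and easier to export. The cytosolic enzymes of Drosophila melanogaster fall into the Delta, Epsilon, Omega, Sigma, Theta and Zeta classes, and the Delta and Epsilon classes expanded in insects as runs of tandem genes tied to insecticide resistance. Several of these genes are induced through Cnc, a cap'n'collar bZIP factor that pairs with the small Maf protein Maf-S at antioxidant response elements and is held back by Keap1. Traffic jam (tj) is a large Maf factor of the same bZIP family, and its recognition sequence is related to those elements.

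Genes were taken as members when they were protein-coding and their symbol was Gst followed by D, E, O, S, T or Z and a digit, which gave 35 of the 13945 protein-coding genes on the 6 chromosome arms 2L, 2R, 3L, 3R, 4 and X. They comprised 11 Delta (GstD), 14 Epsilon (GstE), 3 Omega (GstO), 1 Sigma (GstS), 4 Theta (GstT) and 2 Zeta (GstZ) genes. Traffic jam binding was measured by chromatin immunoprecipitation and sequencing (ChIP-seq) in whole adult females, of unknown age, from 1 transgenic line that stably expresses tj with GFP at its C terminus. All 3 samples are biological replicates of this 1 group, immunoprecipitated with an anti-GFP antibody from chromatin sonicated to 200 to 800 bp. There was no second condition, and no immunoprecipitation from flies without the tag was analysed here. The labels do not say whether the line keeps its own copies of tj beside the fusion. Every tissue of the fly was mixed in each sample, so a weak site in many cells and a strong site in few cells cannot be told apart.

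A gene was called bound when a summit of the optimal list of the irreproducible discovery rate (IDR) procedure lay within 1000 bp of one of its annotated transcription starts. That list held 10688 summits in 9571 regions. It coincided with the 10688 strongest peaks called on the pooled replicates, and its lowest signal was 215.6, in the peak caller's own enrichment units. Read depth is unknown. Signal scale differed between replicates, with medians at IDR peaks of 113.6, 242.1 and 160.6 in replicates 1, 2 and 3. Each replicate's value at a site was therefore divided by that replicate's median, and the quotient is called relative signal, with 1 as a typical IDR peak. With 3 replicates of 1 group, a two-sided sign-flip test between a pair of sites cannot give a p below 0.25, so the ranges over replicates, and the order of 2 sites within each replicate, are described instead.

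Of the 35 genes, 16 (45.7%) were bound, against 36.4% of all protein-coding genes. The classes differed in their counts. Among the Delta genes 1 of 11 was bound (9.09%), and among the Epsilon genes 8 of 14 (57.1%). All 3 Omega genes, the only Sigma gene and 3 of 4 Theta genes were bound, and neither of the 2 Zeta genes was. The 16 bound genes had 24 distinct summits in 21 regions, and 2 of the summits fell near a pair of members each. Of the 24 summits, 20 were promoter summits (within 500 bp of a start of any gene), 2 were intronic, 1 was intergenic and 1 lay in a 3' UTR. They were split evenly around the starts, with 12 upstream and 12 downstream of the nearest coding start. For 21 of them that nearest start belonged to a member.

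**Figure D1:**
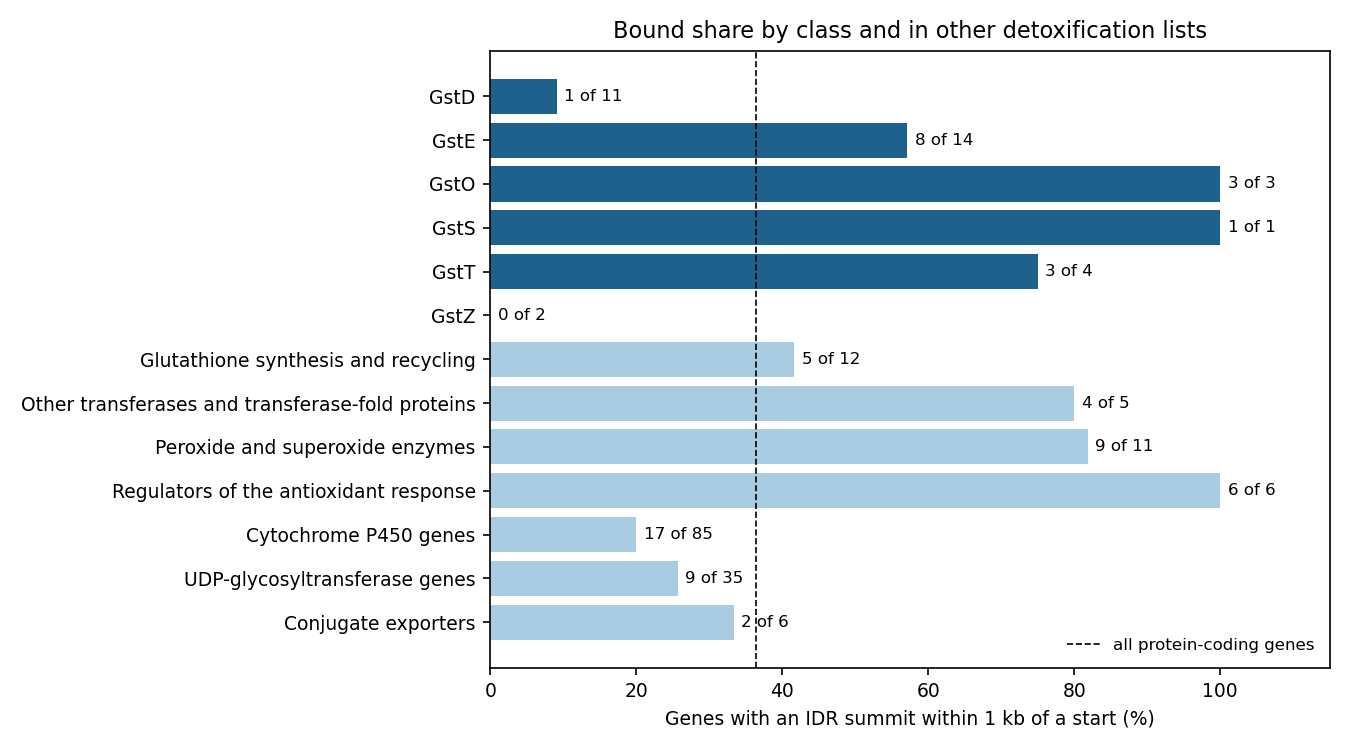
Share of genes with an IDR summit within 1 kb of a start, in percent, for the 6 transferase classes (dark bars) and 7 lists of related genes (light bars), with bound and total genes beside each bar. The cytochrome P450 bar, taken by symbol, includes the cyclophilin gene Cyp1. The regulator bar includes tj, HR96 and ERR, and the exporter bar holds Mdr as well as Mrp genes. The dashed line marks all protein-coding genes at 36.4%; the Delta class, at 1 of 11, and the Zeta class, at 0 of 2, had the lowest shares of the 6 classes.

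The signal at these summits was ordinary for promoters in this list. The median signal over the 24 summits was 447.5, against 447.8 over the 5846 IDR summits within 1000 bp of any coding start. Taking the strongest summit of each bound gene, the median was 559.6 over the members and 527.2 over all 5073 bound genes. The members were spread widely around that middle, from 231.0 at GstE10 and GstE1 to 1718 at GstE13, and 12 of the 24 summits (50%) were among the 5344 strongest of the list, against 49.1% of summits near coding starts.

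**Figure D2:**
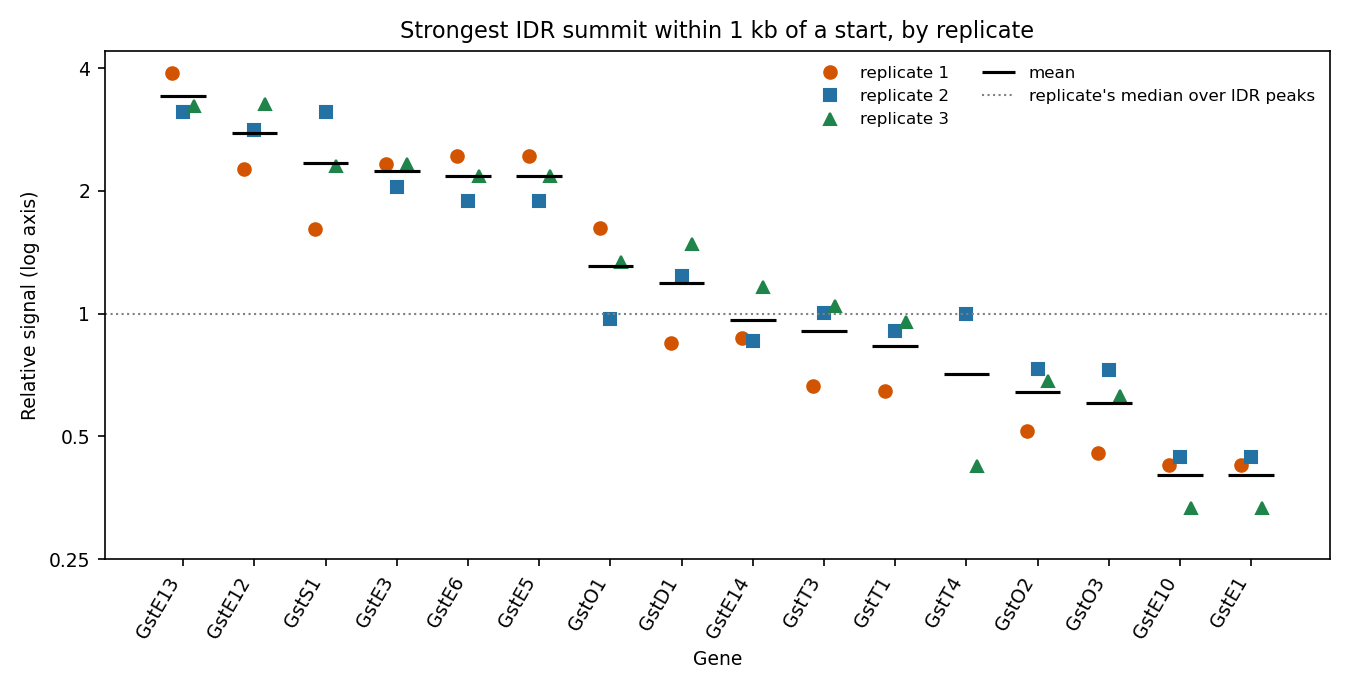
Relative signal (log axis) of the strongest IDR summit within 1 kb of a start of each of the 16 bound genes; points are the 3 replicates, bars their mean, and the dotted line at 1 is each replicate's median over IDR peaks. GstE13 (mean 3.42) and GstE12 (2.78) lay highest and the summit shared by GstE10 and GstE1 (0.40) lowest; GstT4 has no replicate 1 value, and GstE5 and GstE6 also share 1 summit.

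The Delta genes occupy 1 cluster of 20.8 kb on arm 3R (12364776 to 12385624, dm6), in which GstD10, GstD9 and GstD1 are transcribed from the minus strand and GstD2 to GstD8 and GstD11 from the plus strand. The coding gene CG10035 also lies inside it. GstD1, the bound Delta gene, encodes an abundant enzyme that breaks down DDT, and the DNA upstream of it is the source of widely used reporters of Cnc activity. Its summit lay 59 bp upstream of the start, in a region from 12369120 to 12369562 with a pooled signal of 652.9, rank 3553 of the list. The relative signal was 0.85 in replicate 1, 1.23 in replicate 2 and 1.48 in replicate 3 (mean 1.19 ± 0.32, SD, n = 3). Replicate 1 was below its median at this site and the other replicates were above theirs.

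The other IDR summit of the Delta cluster lay between the divergent genes GstD1 and GstD2, 1433 bp from the start of GstD1 and 1270 bp from that of GstD2, and so outside the 1000 bp window of both. Its region ran from 12370581 to 12370822, inside the non-coding gene lncRNA:CR46015 and 194 bp from its start. The pooled signal was 464.3 (rank 5210), and the relative signal was 1.03, 0.93 and 0.75 in replicates 1, 2 and 3 (0.90 ± 0.14, SD, n = 3). The order of the replicates was the reverse of that at GstD1, and the ranges of the 2 summits overlapped. With 2 IDR summits in the cluster and 1 kb on either side, the density was 0.88 per 10 kb, against 0.80 over the 6 arms.

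The sequences at these summits are shown because they are the sites of the Delta cluster in the IDR list, followed by the upstream 100 bases of GstD2, which faces GstD1 and had none. All are from the NCBI Release 6 assembly (dm6), written 5′ to 3′ on the minus strand for the first 2 (chr3R:12369269-12369427 and chr3R:12370601-12370801) and on the plus strand for GstD2 (chr3R:12371871-12371970). The GstD1 stretch ends at the base before its start. None held the Maf half-site core TGCTGAC, the AP-1 site TGACTCA or the antioxidant response element core TGACNNNGC (N is any base) on either strand, so no base is in capitals.
GstD1 promoter summit: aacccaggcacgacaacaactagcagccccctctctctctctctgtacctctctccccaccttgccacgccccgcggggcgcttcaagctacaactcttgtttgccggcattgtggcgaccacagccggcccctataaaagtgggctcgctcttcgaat
Summit between GstD1 and GstD2: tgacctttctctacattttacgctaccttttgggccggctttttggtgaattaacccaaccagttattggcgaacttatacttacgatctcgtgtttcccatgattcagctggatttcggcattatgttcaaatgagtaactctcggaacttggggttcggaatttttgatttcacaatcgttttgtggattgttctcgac
GstD2 upstream: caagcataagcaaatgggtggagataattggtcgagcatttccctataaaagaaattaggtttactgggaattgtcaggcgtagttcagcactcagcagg

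The whole interval of 2702 bp between the starts of GstD1 and GstD2 held 3 matches to the AP-1 site, 1 to the response element core and none to the Maf core. The response element core, in capitals below with its flanks, lay at chr3R:12370513-12370521 on the plus strand. It was 184 bp from the summit inside the non-coding gene and 1190 bp from the GstD1 summit, farther than the 100 bp either side of a summit in which motifs were counted.
Response element core between GstD1 and GstD2: actatcagcaTGACCGGGCaaaaaaattc

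Beyond GstD1, the Delta genes had pooled summits too weak for the IDR list, or none. Within 1000 bp of a start, the strongest pooled summit was 123.6 at GstD3, 111.9 at GstD2, 108.6 at GstD10, 99.1 at GstD9 and 67.2 at GstD4. These values were 57.3%, 51.9%, 50.4%, 45.9% and 31.1% of the lowest signal in the IDR list. GstD5, GstD6, GstD7, GstD8 and GstD11 had no pooled summit in the window, and GstD5, GstD6 and GstD7 had none in any replicate list either. The pooled list and each replicate list held exactly 30000 peaks, so a gene without a summit may have one that ranks below the last peak listed. A stretch of 7.27 kb without a pooled summit held the starts of the 5 genes GstD4 to GstD8. Genome-wide, 11.2% of the gaps between neighbouring pooled summits were at least as long. The stretch was picked as the longest in the cluster, so that share does not say how often a cluster holds one. With 1 kb on either side, the cluster held 11 pooled summits, or 4.81 per 10 kb, against 2.24 over the 6 arms. Counting GstD1, 6 of the 11 Delta genes had a pooled summit within 1000 bp of a start, against 59.1% of all genes.

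Reads can be placed on tandem copies only where their sequences differ. Within 1 kb of their starts, 97.9% to 100% of the 31-base words around the 35 genes occurred once in the genome, and for the Delta genes the median was 99.4%. The lowest value was at GstD2. The median over all coding genes was 100% and the 5th percentile 89.6%, and bound and unbound members both had a median of 100%.

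**Figure D3:**
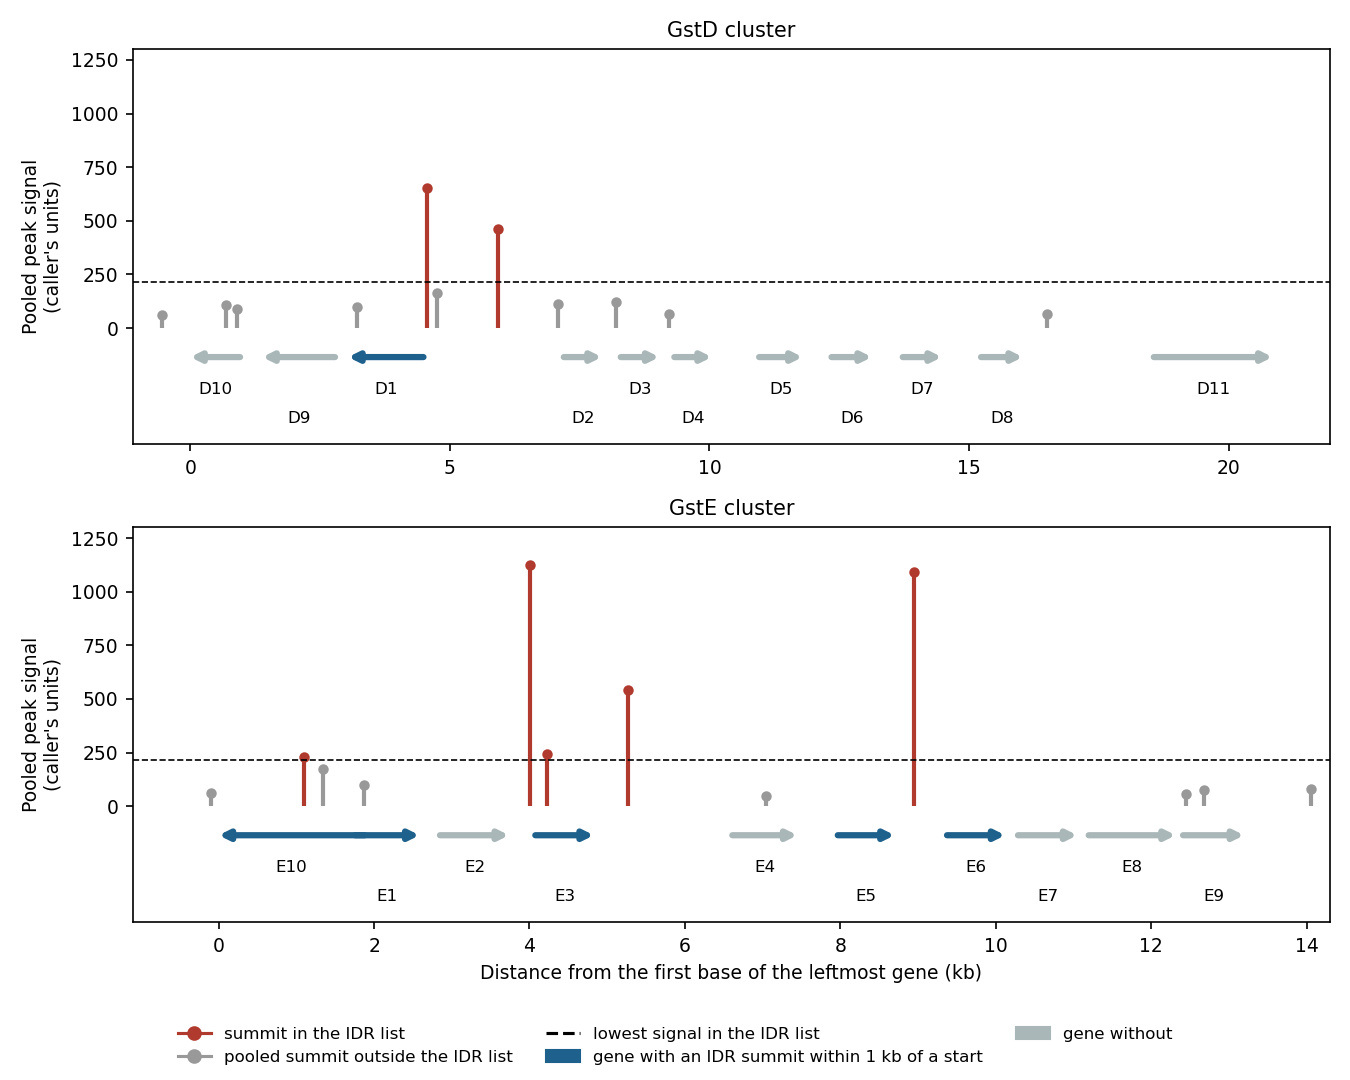
Pooled peak signal (vertical lines, in the caller's units) along the GstD and GstE clusters, by distance in kb from the first base of the leftmost gene; red marks summits in the IDR list, grey other pooled summits, arrows the member genes and the dashed line the lowest IDR signal of 215.6. The GstD cluster has 2 IDR summits, at the start of GstD1 and between GstD1 and GstD2, and no pooled summit over GstD5 to GstD8; the GstE cluster has 5 IDR summits.

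The 3 Omega genes lie in 5.98 kb of arm 3L (8518885 to 8524866), with the Omega-class gene sepia (se) between GstO3 and GstO2. The se enzyme makes a precursor of the red eye pigments. It had no IDR summit, and its symbol keeps it out of the member count. GstO2 had a summit 99 bp inside its start, with relative signals of 0.52, 0.73 and 0.68 (0.64 ± 0.11, SD, n = 3) in replicates 1, 2 and 3. GstO3 had one 15 bp upstream of its start, at 0.45, 0.73 and 0.63 (0.60 ± 0.14). Both were below the replicate medians in all 3 replicates. Their ranges overlapped, and GstO2 was the higher in each of the 3 replicates, in replicate 2 by less than the rounding shown. GstO1 was counted through 2 summits that belong by distance to its divergent neighbour foi, a zinc transporter gene. The stronger was 390 bp upstream of GstO1 and 12 bp from a start of foi, with relative signals of 1.62, 0.97 and 1.34 (1.31 ± 0.33), all above those of GstO2 and GstO3.

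The Omega summits are printed from dm6 because the one at GstO2 held the response element core, in capitals, and the one at GstO3 held none of the 3 motifs. The GstO2 stretch is chr3L:8523302-8523431 on the minus strand and runs from its start codon into the first intron. The GstO3 stretch is chr3L:8518770-8518884 on the plus strand, ending at the base before its start.
GstO2 summit: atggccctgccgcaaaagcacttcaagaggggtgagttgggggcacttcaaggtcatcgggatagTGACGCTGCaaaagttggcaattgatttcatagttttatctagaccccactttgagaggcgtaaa
GstO3 summit: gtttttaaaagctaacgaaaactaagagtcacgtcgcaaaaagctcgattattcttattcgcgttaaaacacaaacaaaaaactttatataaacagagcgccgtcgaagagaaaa

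Among the Theta genes, a class found across animals and plants, GstT4 (X, 13404749 to 13409323, plus strand) had 2 upstream summits. The one 652 bp upstream had the higher pooled signal, 357.1, with relative signals of 1.00 and 0.42 in replicates 2 and 3 and no summit within 200 bp in replicate 1. The one 338 bp upstream, with a pooled signal of 259.2, had relative signals of 0.85 and 0.78 in replicates 1 and 2 and none in replicate 3. Neither summit of GstT4 was therefore matched in all 3 replicate lists. The nearer one is shown (dm6, chrX:13404311-13404511, plus strand) because it was 1 of 2 member summits with the Maf half-site core, here on the reverse strand, so that the capitals read GTCAGCA.
GstT4 nearer summit: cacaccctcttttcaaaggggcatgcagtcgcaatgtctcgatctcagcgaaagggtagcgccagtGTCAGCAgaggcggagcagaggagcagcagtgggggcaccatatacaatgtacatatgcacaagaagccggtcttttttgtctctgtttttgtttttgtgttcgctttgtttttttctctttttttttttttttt

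GstT3 (X, 20467455 to 20469796), with 3 annotated starts, had 3 summits. The strongest lay 64 bp inside its innermost start, with relative signals of 0.67, 1.00 and 1.05 (0.91 ± 0.21, SD, n = 3) in replicates 1, 2 and 3. The others were 437 and 638 bp upstream of the first start, and the farther one fell in a 3' UTR. Those shared their matched summits in replicates 2 and 3, at 0.77 and 0.73, and read 0.31 and 0.55 in replicate 1. All values of GstT3 in replicate 1 were below those in the other replicates.

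GstT1 and GstT2 are tandem genes on arm 2R (9605988 to 9608350). GstT1 had a summit 24 bp upstream of its start, with relative signals of 0.64, 0.90 and 0.95 (0.83 ± 0.17, SD, n = 3), under the median in each replicate. The start of GstT2 was 1328 bp from that summit. GstT2 had a pooled summit of its own 54 bp from its start, at a signal of 151.8 or 70.4% of the lowest IDR signal. The Zeta genes GstZ1 and GstZ2, whose enzymes act as maleylacetoacetate isomerases in tyrosine breakdown, lie on arm 3R (9455517 to 9460652) and their nearest IDR summits were 21072 and 16966 bp away. GstZ2 came closest of all unbound members to the list, with a pooled summit of 210.4 (97.5% of the lowest IDR signal) at 698 bp from a start. GstZ1 had one of 89.2 at 29 bp.

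The Sigma gene GstS1 had the most summits of any member. Its enzyme is abundant in flight muscle and conjugates products of lipid peroxidation. Within 1000 bp of its 3 starts (2R, 17093246 to 17099501, minus strand) lay 6 IDR summits, and 1 more was 1141 bp from a start, in an intron. The strongest, in a region from 17099007 to 17100427, lay 291 bp inside the outermost start and had a pooled signal of 1268 and relative signals of 1.61, 3.11 and 2.30 (2.34 ± 0.75, SD, n = 3). Replicate 2 gave the highest value and replicate 1 the lowest, and this SD was the largest among the strongest summits of the bound genes. The values of replicates 2 and 3 were shared with the summit 90 bp inside the same start, so this SD may not describe 1 summit alone. With replicate summits matched within 100 bp, the mean was 1.68. An intronic summit 934 bp inside a start, at a pooled signal of 686.0, held the response element core. Its relative signals of 1.64, 1.86 and 2.18 (1.90 ± 0.27) were the same as at the summit 1141 bp from a start. That neighbour had the higher pooled signal, 987.4, and did not hold the core, so the shared values are not separate readings of the summit with the core. The remaining summits near the starts included one at 37 bp with a mean of 0.82 and one at 305 bp with a mean of 0.84. One of the 6, at the outer edge, was nearer to the divergent gene CG46491.

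**Figure D4:**
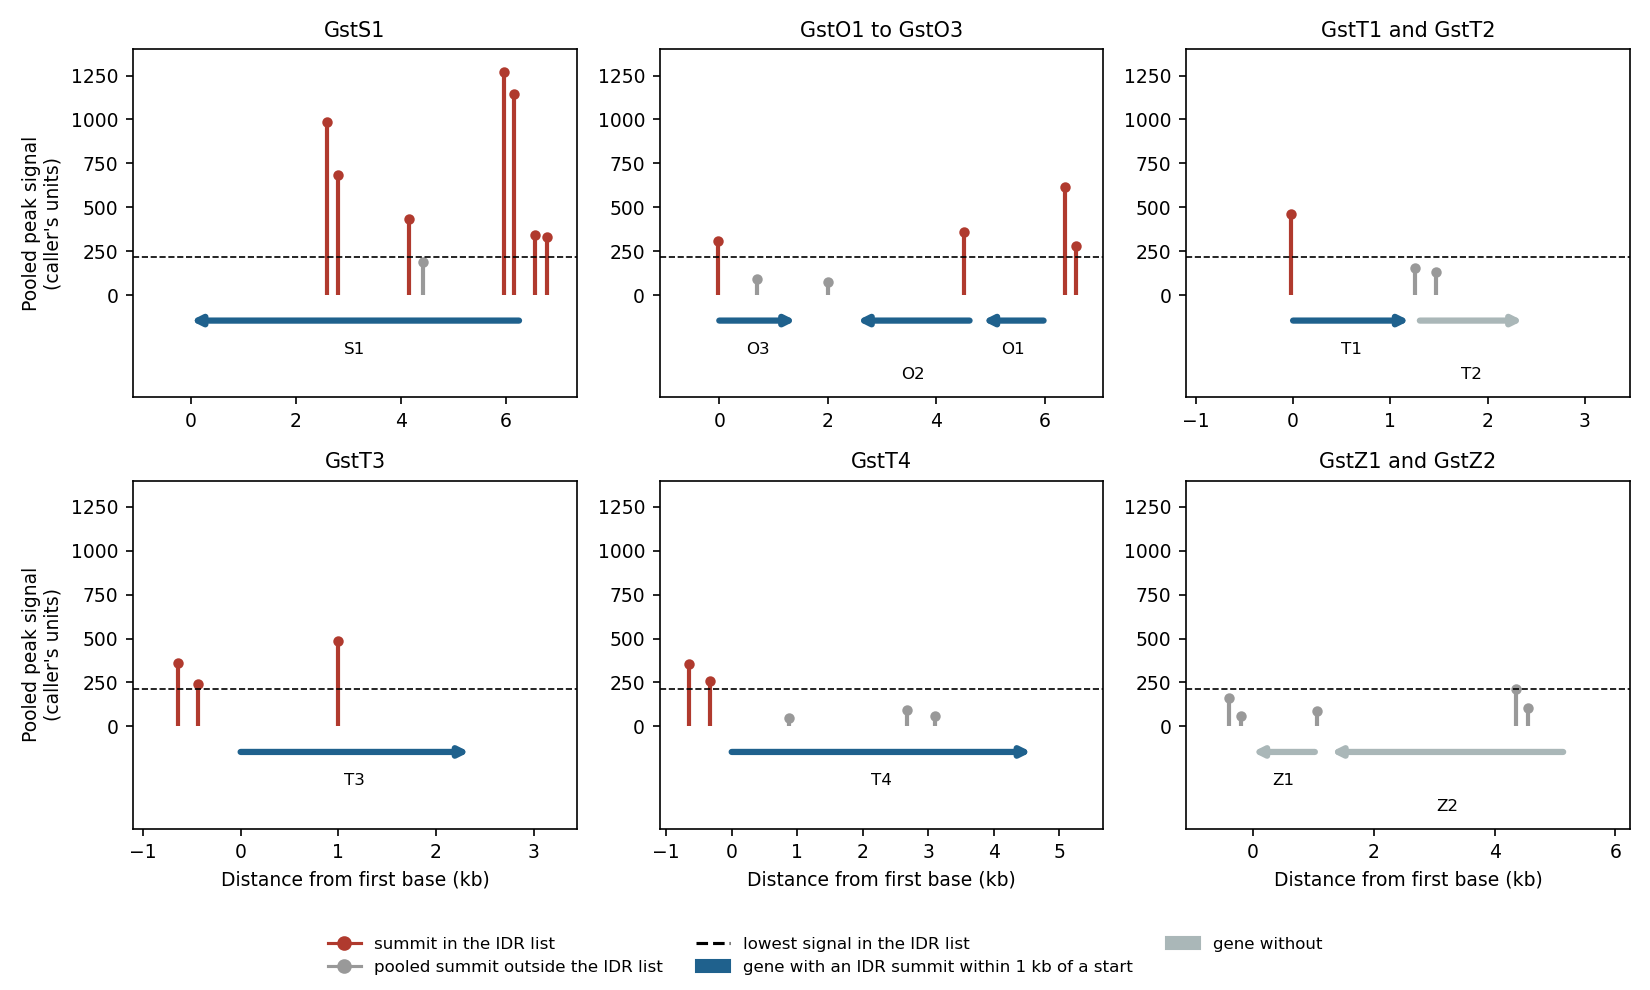
Pooled peak signal (in the caller's units) at the Sigma, Omega, Theta and Zeta genes, by distance in kb from the first base of the leftmost gene shown; colours and dashed line as in the map of the GstD and GstE clusters. GstS1 has 7 IDR summits in its gene and flanks, and the Zeta genes have none, with 1 pooled summit at 210.4 just under the line at 215.6.

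The Epsilon genes stand in 1 cluster of 10 genes and at 4 single sites, all on arm 2R. The cluster (18396638 to 18409835, 13.2 kb) runs from GstE10 on the minus strand through GstE1 to GstE9 on the plus strand. With 1 kb on either side it held 5 IDR summits, or 3.29 per 10 kb, and 12 pooled summits. Median spacing of neighbouring starts was 1214 bp there, against 1571 bp in the Delta cluster.

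The strongest summits of the Epsilon cluster were at GstE3 and between GstE5 and GstE6. At GstE3, the summit 66 bp upstream of the start had a pooled signal of 1125 and relative signals of 2.33, 2.04 and 2.33 in replicates 1, 2 and 3 (2.23 ± 0.17, SD, n = 3). The window around it held the response element core, and a weaker second summit lay 146 bp inside the gene at a pooled signal of 243.5. The other lay 428 bp upstream of GstE6 and 978 bp from the start of GstE5, at a pooled signal of 1092. Its relative signals were 2.43, 1.89 and 2.18 (2.17 ± 0.27), and its window held the Maf half-site core. Its range overlapped that of GstE3, and it was the higher of the 2 in replicate 1 and the lower in replicates 2 and 3.

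GstE10 and GstE1 were counted through 1 weak summit, 207 bp upstream of a start of GstE10 and 660 bp upstream of GstE1. Its relative signals were 0.43, 0.45 and 0.33 (0.40 ± 0.06), and it was among the strongest 10688 peaks of none of the replicates. It too held the response element core. Another summit of the cluster, with a pooled signal of 541.2, lay at the pseudogene CR43687, 1197 bp from the start of GstE3 and 1338 bp from that of GstE4, and counted for neither. Of the 5 unbound genes in the cluster, GstE2, GstE9 and GstE4 had pooled summits of 98.2, 73.5 and 49.98, and GstE7 and GstE8 had none. The summit counted for GstE2 was 981 bp from its start and 14 bp from a start of GstE10.

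The Epsilon genes outside the cluster included the strongest sites of the family. GstE13 (9122125 to 9123309, plus strand), which had the highest pooled signal of the members, had a summit 52 bp inside its start with relative signals of 3.90, 3.12 and 3.23 (3.42 ± 0.42, SD, n = 3). GstE12 (24766718 to 24768172, minus strand) had one 110 bp inside its start at 2.26, 2.81 and 3.27 (2.78 ± 0.51). Replicate 1 was highest at GstE13 and lowest at GstE12, and the ranges of the 2 genes overlapped, with GstE13 the higher in replicates 1 and 2 and GstE12 in replicate 3. GstE14, also named noppera-bo, encodes an enzyme of the ecdysone-producing gland needed for steroid synthesis. Its summit was intronic, 782 bp inside the start, with relative signals of 0.87, 0.86 and 1.16 (0.96 ± 0.17), and held the response element core. GstE11 was the single-site gene without an IDR summit, and had a pooled summit of 115.2 at 168 bp from its start.

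By position, the members formed 12 loci when genes up to 20000 bp apart were joined. The 5 clusters held 28 genes, of which 10 were bound, and the 7 single genes included 6 bound ones. Every cluster but that of the Zeta genes had at least 1 bound gene. A window of 1000 bp can give 1 summit to several neighbouring genes. Among genes with another coding start within 2000 bp, 13 of 29 members were bound (44.8%), and the share over all 8474 such coding genes was also 44.8%. When each summit was given only to the gene with the nearest coding start, 13 members were bound (1 Delta and 6 Epsilon), against 27.1% of all genes. The genes that lost their summit were GstE1, GstE5 and GstO1.

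The number of bound members moved with the rule, while Delta counts stayed low. Within 500 bp 13 were bound (1 Delta, 5 Epsilon; 31.9% of all genes), and within 2000 bp 22 were (3 Delta, 11 Epsilon; 41.9%). The 3 Delta genes at 2000 bp were GstD1, GstD2 and GstD9. Among the 5344 strongest summits of the list 11 members had a summit (21.1% of all genes), and with summits matched among the strongest of all 3 replicates 13 did (29.9%). Between gene start and end, 8 members held a summit (21.5% of all genes), none of them Delta. Requiring a match in both other replicates gave 13 members without replicate 1 (31.5% of all genes), 13 without replicate 2 (32.2%) and 14 without replicate 3 (31.4%), with 1 Delta and 6 Epsilon genes each time. At the edges of the main rule, GstE5 at 978 bp was the member just inside and GstE2 at 1161 bp the one just outside, and the summit of GstE10 and GstE1 at 231.0 and that of GstZ2 at 210.4 lay on either side of the lowest IDR signal.

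Below the IDR threshold, 12 of the 19 unbound members had a called summit in the pooled list. Of all 13945 coding genes, 8242 had a pooled summit within 1000 bp, and 5073 of these were bound. Another coding start lay within 2000 bp for 29 of the 35 members, and the pooled share was not computed over such genes alone. In the pooled list, which includes background, 28 of 35 members (80%) had a summit within 1000 bp, against 59.1% of all genes; 16 of the 28 are the bound members, whose pooled summit is the IDR summit itself. In the replicate lists 30, 30 and 27 members did, in replicates 1, 2 and 3, against 58.3%, 57.1% and 60.4% of all genes. The 12 unbound members with a pooled summit had signals from 49.98 to 210.4 and a median of 103.8. The relative signals of unbound members in the replicate lists ran from 0.093 to 0.47 and those of bound members from 0.33 to 3.90. The IDR list was made from these same replicates, so a lower range in unbound members is built into the rule.

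**Figure D5:**
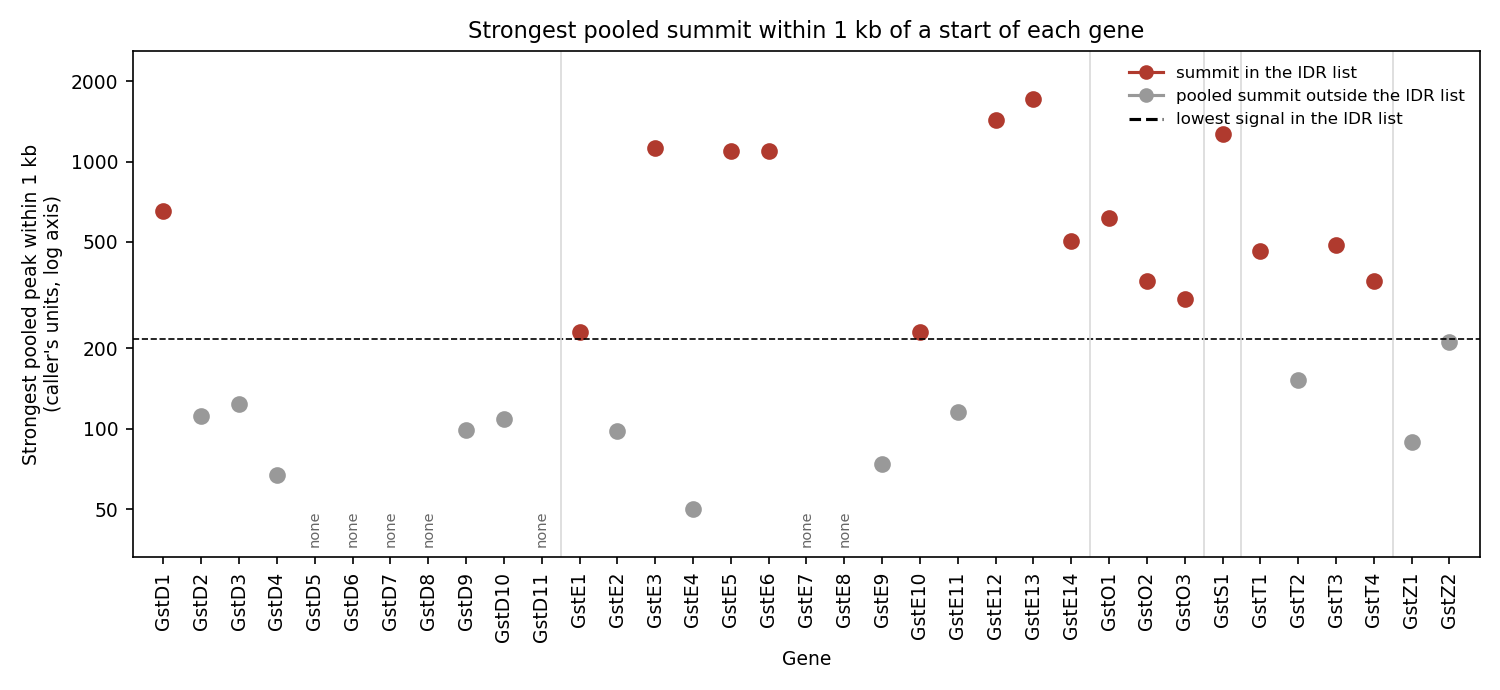
Signal of the strongest pooled summit within 1 kb of a start of each of the 35 genes (log axis, in the caller's units); red marks summits in the IDR list, grey those outside it, "none" no pooled summit, and the dashed line the lowest IDR signal of 215.6. Of the 11 Delta genes 1 lies above the line and 5 have no summit, while the Epsilon values run from 49.98 at GstE4 to 1718 at GstE13.

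The replicates differed in the level of relative signal at the member sites. Over the 16 bound genes, the median relative signal was 0.87 in replicate 1, 1.00 in replicate 2 and 1.25 in replicate 3. GstT4 had no value in replicate 1 and is missing from that median. The 16 genes had 14 distinct strongest summits, over which the 3 medians were the same. Of the 22 member summits seen in all 3 replicates, replicate 1 gave the lowest value at 15 (68.2%), replicate 2 at 6 and replicate 3 at 1. Over the 5575 summits near any coding start that were seen in all 3, replicate 1 was lowest at 32.95%. Some neighbouring summits, as at GstS1, GstT3 and GstE3, share a matched replicate summit, so these are not 22 separate readings. For 13 of the 16 genes, the strongest summit was among the strongest 10688 of every replicate.

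The motif counts were small. Within 100 bp on either side of the 24 member summits, the Maf half-site core was present in 2 (8.33%; the summits of GstE5 and GstE6 and of GstT4), against 4.72% of IDR summits within 500 bp of a coding start, 6.84% of all IDR summits and 2.35% of windows at coding starts. The AP-1 site was in 0 of 24, against 2.07%, 2.70% and 1.59% of the same sets. The response element core was in 5 (20.8%; GstE3, GstE14, GstS1, GstO2 and the summit of GstE10 and GstE1), against 7.29%, 9.16% and 6.49%. Of these 5 summits, those of GstE14 and GstS1 lay more than 500 bp from a start. The size of this contrast depended on the width searched. Within 200 bp of a summit or start the member share stayed at 20.8%, while the same sets rose to 13.3%, 15.2% and 11.8%. An AP-1 site followed by GC also matches the response element core. At the 45 annotated starts of the members, summits aside, the response element core was in the windows of GstD2 and GstE3, the AP-1 site in those of GstE9 and GstE10, and the Maf core in that of GstE9. These matches describe the letters in the windows only.

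Genes that supply or regulate glutathione chemistry were bound to differing degrees beside the 36.4% of all genes. The list called regulators of the antioxidant response held cnc, Keap1 and maf-S, with tj itself and the nuclear receptor genes HR96 and ERR. All 6 of these genes were bound. The data do not show that tj, HR96 or ERR act in that response. Their strongest summits, as means over the 3 replicates, were at Keap1, the inhibitor of Cnc (relative signal 5.46 ± 0.31, SD), cnc itself (4.87 ± 0.51), tj (2.38 ± 0.82) and the nuclear receptor gene ERR (1.43 ± 0.52, nearer to Atg18a). In each replicate, the values at Keap1 and cnc were above those of every member's strongest summit. Of 12 genes of glutathione synthesis and recycling 5 were bound, led by Gclc and with Gclm among them, the catalytic and modifier subunits of the enzyme that starts glutathione synthesis (2.22 ± 0.52 and 0.86 ± 0.10). Trxr1, the thioredoxin reductase that stands in for glutathione reductase in flies, had 1.64 ± 0.54 and the glutaredoxin gene Grx1 1.03 ± 0.15.

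Proteins related to the transferases by fold or activity were bound at 4 of 5 genes, with se unbound. These were the chloride intracellular channel gene Clic (5.51 ± 0.47), the translation factor gene eEF1gamma (2.60 ± 0.69), the microsomal transferase gene Mgstl (2.20 ± 0.16) and gfzf, whose product joins a transferase domain to zinc fingers (1.07 ± 0.25). Enzymes that remove peroxide and superoxide were bound at 9 of 11 genes, led by the catalase gene Cat (3.18 ± 1.07), the peroxidase gene Gtpx (1.46 ± 0.29) and the peroxiredoxin genes Prx3 (1.18 ± 0.22) and Prx2 (1.19 ± 0.47), with Prx4 and Prx6b unbound.

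The other large detoxification families had lower shares, and a smaller part of their genes lay close to another coding start. Another start lay within 2000 bp for 29 of 85 genes with a Cyp symbol and 11 of 35 UDP-glycosyltransferase genes, against 29 of the 35 members. Whether this spacing accounts for the lower shares was not tested. The list of cytochrome P450 genes, which oxidise foreign compounds, was taken by the symbol Cyp and a digit, and 17 of 85 were bound (20%). Its strongest summits were at Cyp6u1 (3.02 ± 0.41, nearer to Ufsp1), Cyp6d5 (1.57 ± 0.36), Cyp1 (1.65 ± 0.36) and Cyp4s3 (1.40 ± 0.13). Cyp1, a cyclophilin gene and not a P450 gene, entered by its symbol and is counted among the 17. UDP-glycosyltransferase genes, which attach sugars, were bound at 9 of 35 (25.7%), led by Ugt36D1 (3.85 ± 0.14), Ugt316A1 (1.18 ± 0.46, nearer to Sfxn2), Ugt36E1 (1.08 ± 0.10) and Ugt317A1 (1.09 ± 0.28). Exporter genes of the Mrp and Mdr types, not all of which export conjugates, were bound at 2 of 6. These were MRP (1.59 ± 0.40) and Mrp4 (0.84 ± 0.16), and Mdr49, Mdr50, Mdr65 and Mrp5 were not bound.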

How the data were processed

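Binding was measured in 3 samples of 1 group. The deposited files are narrowPeak lists, and the signal of a peak is the enrichment value that the authors' peak caller gave, with no stated unit. Per the descriptions deposited with the files, replicate lists and a pooled list are relaxed lists made as input for IDR, and the optimal IDR list was derived from them. No label or header names the aligner, the caller or the IDR threshold. Lists on build dm3 were not used. The dm6 sequence came from the NCBI Release 6 assembly, and genes and starts from the Ensembl 115 annotation (BDGP 6.54) without transposable elements.

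Summits were assigned to every gene with a start within 1000 bp. Relative signal used the strongest replicate summit within 200 bp of the IDR summit, divided by that replicate's median over the 10265 IDR peaks matched in all 3 replicates, so neighbouring summits can share a value. Uniqueness was counted over 31-base words on both strands of the 6 arms, and motifs on both strands within 100 bp of a summit or start. The lists of related genes were written by symbol, with 7 symbols matched through an older one and 1 (GLO1) unmatched. GstE14 was left out of them as a member. Every member is named, and from each list the 4 bound genes with the strongest summit, with unbound genes where there were 5 or fewer. All genes of the regulator list are named. The members and lists were chosen with earlier results of these data known. With 1 group there is no contrast, and no test was run. The summit assignment, matching and word counts were tested on simulated data. Depth per sample is unknown, so no interval that needs it is given. No per-sample value column was left unmapped. Scripts ran under Python 3.11.15 with pandas 2.3.3, NumPy 2.4.6 and SciPy 1.17.1, and figures were drawn with Matplotlib 3.10.9.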

Additional observations from a re-analysis of the deposited data

How the results depend on the processing

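Of the counts and medians recomputed under another setting, 110 stayed near the reported value (counts within 1.5 times, medians within 1 SD) and 16 moved further. Members with a summit fell to 8 over the gene body. Distinct summits, 24 as reported, fell to 12 in the 5344 strongest IDR peaks and to 12 over the gene body. The Delta count rose to 3 at 2000 bp, the Epsilon count fell to 5 at 500 bp, and the Omega, Sigma, Theta and Zeta genes together fell from 7 to 4 in the 5344 strongest. In those strongest peaks, glutathione synthesis fell to 3 genes, the peroxide enzymes to 4, genes with a Cyp symbol to 8, UDP-glycosyltransferases to 4 and exporters to 1. The Cyp count was also 9 with peaks matched in all 3 replicates and 10 to 13 when 1 replicate was left out, and UDP-glycosyltransferases fell to 5 at 500 bp. The 2000 bp window is wider by construction, and the 500 bp window and the peak subsets keep less. The gene body rule leaves out summits that lie outside a gene. Those of GstT1, GstE1, GstE6, GstO3, GstO1, GstD1 and GstT4 lay upstream, and that of GstE5 lay beyond its end. The median relative signal of the bound members was 1.08, and 3.77 when divided by the median over each whole replicate list, which includes background. Within 200 bp of a summit the AP-1 site was in 1 of 24 member windows (4.17%). The shares at that width were 3.84% of IDR summits within 500 bp of a coding start, 4.92% of all IDR summits and 3.23% of windows at coding starts. The response element core stayed in 5 of 24 member windows there (20.8%), against 13.3%, 15.2% and 11.8% of the same sets. In a window narrower than the reported one it was in 4 of 24 (16.7%), against 4.27%, 5.64% and 3.86%. Taking the same number of strongest pooled peaks changed no count, since they are the IDR peaks. Leaving out a replicate kept peaks matched in both others, but the IDR list was still made from all 3. Limiting the background to crowded genes and using 1 summit per region (21 summits) were added after the data were seen. No paired analysis was possible because the samples form 1 group, so there is no second group whose replicates could be paired with them. Depth is unknown, so an unbound gene means only that no summit passed the authors' threshold.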
